A study of Rattus norvegicus with 34 samples.

Results

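RNA from dorsal hippocampus punches was compared between 6 ABX-SAL rats, given an antibiotic cocktail in the juvenile period and saline afterwards, and 7 SAL-SAL rats, given saline at both steps. These 13 rats were chosen by their treatment label alone, out of 34 rats with libraries in the series, 20 of them from the same experiment. The experiment itself began with more rats than have libraries here. The other 7 libraries (ABX-PARA) are of rats that received the same antibiotics followed by Parabacteroides. In the analysis of the Parabacteroides effect, ABX-SAL and SAL-SAL rats were combined as controls, and the question addressed here is how far their hippocampal transcripts differed from each other.

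All 13 were male Sprague Dawley rats that arrived at PN 26–28. For 7 days, ABX-SAL rats were gavaged with vancomycin at 50 mg/kg and with neomycin and metronidazole at 100 mg/kg each, had ampicillin at 1 mg/mL to drink until the last day, when they had water instead, and were then given saline by gavage. SAL-SAL rats were given saline by gavage at both steps. Both groups were housed singly, kept on sterile water and chow, tested in the same behavioral tasks and a glucose tolerance test, and killed at PN 83. Tissue was therefore collected between 48 and 50 days after a 7-day course begun at PN 26–28 had ended, and nothing measured here speaks to the days of treatment themselves. Females were not studied.

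The antibiotics of the cocktail act on different bacteria. Vancomycin blocks cell wall synthesis in Gram-positive bacteria, ampicillin is a beta-lactam that also blocks cell wall synthesis, neomycin is an aminoglycoside that binds the bacterial ribosome, and metronidazole damages the DNA of anaerobes. Vancomycin and neomycin are poorly absorbed from the gut. The dorsal hippocampus is required for contextual and spatial memory, and gut bacteria are studied as one source of signals that reach it through immune, endocrine and neural routes.

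The values were estimated read counts for 31196 Ensembl transcripts. The files do not pair these with gene names, and no annotation was used. Results are therefore given per transcript, groups of genes were not formed, and markers of the tissue were not checked. A punch is bulk tissue, in which fewer cells of a type and less RNA per cell cannot be told apart. Between 15350611 and 18324180 reads were assigned per ABX-SAL rat (median 16312011) and between 14394530 and 18361014 per SAL-SAL rat (median 16855318). The ranges overlapped, with 2 SAL-SAL rats below and 1 above all ABX-SAL rats. A transcript was tested where its count was above 1 in more than 50% of the 13 rats, which left 20954 transcripts with 99.9% of the assigned reads.

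The samples carry label numbers that fall into 2 sets, and the sets are unevenly spread over the groups. The first set (numbers up to 11) holds 1 ABX-SAL and 3 SAL-SAL rats, and the second (from 12) holds 5 ABX-SAL and 4 SAL-SAL rats. What the numbers stand for is not stated. With 1 ABX-SAL rat in the first set, a value within a set was available for the second alone.

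Antibiotic-treated and saline rats were not separated along the main axes of variation. On the first 2 principal components, which held 11.2% and 9.92% of the variance of the 500 most variable transcripts, 5.07% of the spread lay between the groups (exact permutation test over 1716 groupings, p = 0.591). For the rats of the second label set the share was 9.56% when the same components were used (126 groupings, p = 0.524 by exact permutation) and 2.46% on components fitted to that set alone (exact permutation test, p = 0.865). The label sets took 18.8% of the same spread over the 13 rats (exact permutation test over 715 groupings, p = 0.0895).

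**Figure D1:**
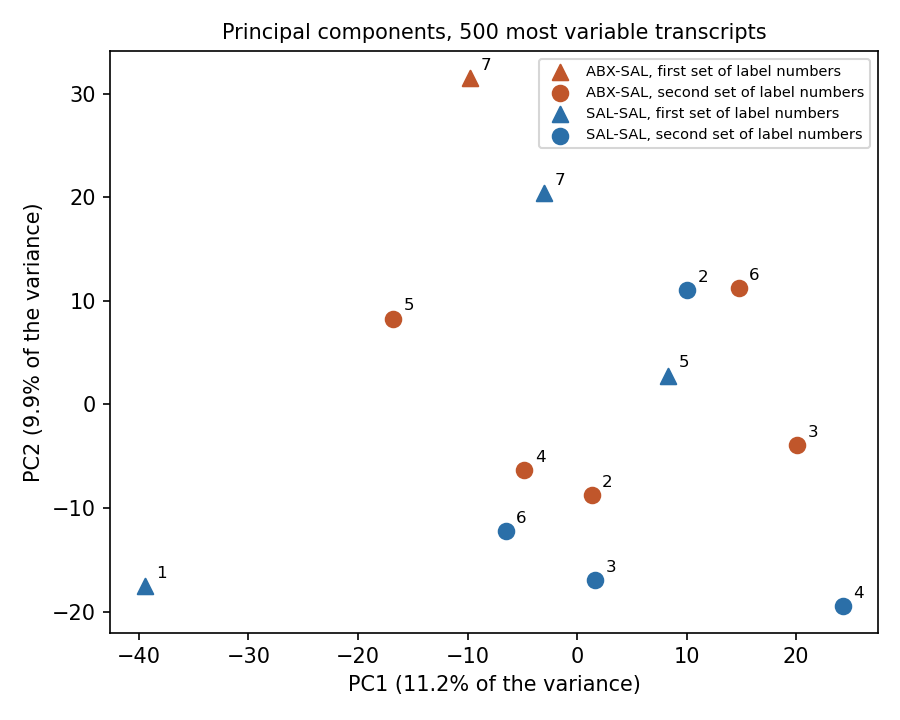
Scores of the 13 rats on the first and second principal component of log2 CPM, with colour for the group, shape for the set of label numbers and the replicate number beside each point. ABX-SAL and SAL-SAL points are mixed, with 5.07% of the spread in this plane between the groups.

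Summary measures of the libraries differed by less than the spread between rats. The 100 most abundant transcripts took between 21.1% and 24.6% of the reads in ABX-SAL rats (median 22.8%) and between 21.9% and 23.96% in SAL-SAL rats (median 22.96%), a difference in means of -0.26 percentage points (exact permutation test, two-sided, p = 0.635). The number of transcripts with a count above 1 was 21111 ± 57.8 (SD, n = 6) in ABX-SAL rats and 21057 ± 112 (SD, n = 7) in SAL-SAL rats, a difference of 53.2 (exact permutation test, p = 0.325). Without SAL-SAL replicate 5 the difference was 87.2 (exact permutation test, p = 0.0455). The slope of log2 abundance on log2 transcript length, which measures whether a library leans towards long or short transcripts, differed by -0.0032 in the means (exact permutation test, p = 0.555). In the family of 7 such measures the lowest Benjamini-Hochberg adjusted p was 0.889 (exact permutation tests).

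The scatter among rats of the antibiotic group did not exceed that among saline rats beyond the spread of the measure. The distance of each rat's log2 CPM profile from the mean of the others of its group was between 84.0 and 97.1 in ABX-SAL rats (median 86.0) and between 82.4 and 94.6 in SAL-SAL rats (median 84.1). The ranges overlapped, and the means differed by 1.81 (exact permutation test, two-sided, p = 0.501). For the rats of the second label set the means differed by 3.18 on the same distances (126 groupings, p = 0.373 by exact permutation). On distances taken within that set alone the difference was -0.84 (exact permutation test, p = 0.770). With 1 ABX-SAL rat left out of the 13, the difference ran from 1.09 to 4.47. With 1 SAL-SAL rat left out it ran from -0.15 to 2.42. The mean of the others rests on fewer rats in a smaller group, which lengthens the distances at equal scatter. ABX-SAL was the smaller group over the 13 rats and the larger in the second label set. The part of these differences that comes from group size was not separated. Where log2 CPM averaged more than 1 (16106 transcripts), the median SD of log2 CPM was 0.157 within ABX-SAL rats, 0.153 within SAL-SAL rats and 0.162 over the 13 rats taken as a single control group.

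No transcript passed an adjusted p of 0.05 in the main test. Of 20954 transcripts, 0 (0%) were called by the edgeR quasi-likelihood test with Benjamini-Hochberg adjustment, and the lowest adjusted p was 0.992. At an unadjusted p under 0.05 there were 910 transcripts (4.34%), where an even spread of p-values gives 1047.7. DESeq2, the tool named in the study's methods, called 4 transcripts (0.0191%) past the adjusted threshold, 2 in each direction, and placed 970 at an unadjusted p under 0.05. limma voom called 0, with a lowest adjusted p of 0.263.

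**Figure D2:**
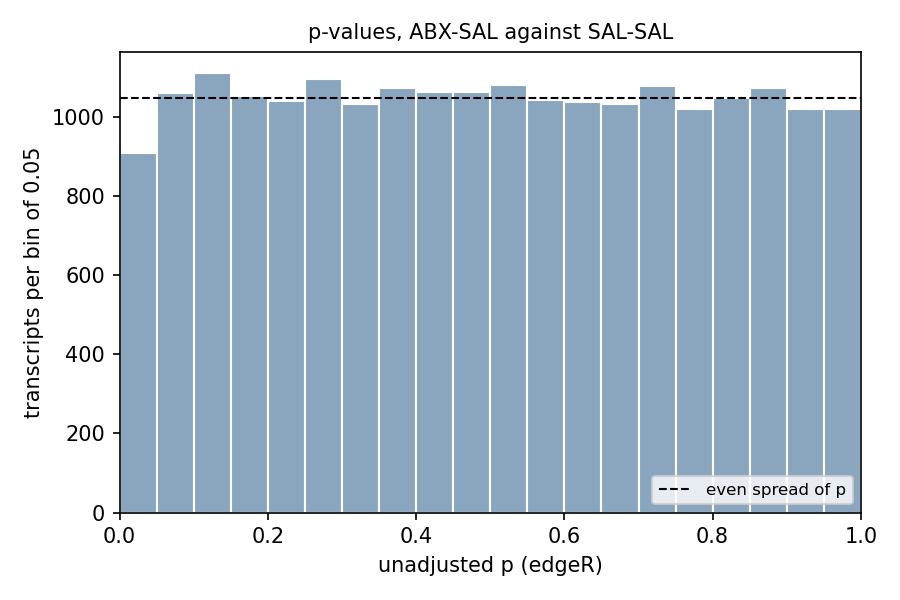
Number of transcripts (vertical axis) in each bin of 0.05 of the unadjusted edgeR p-value (horizontal axis), with the number an even spread gives as a dashed line. The lowest bin holds 910 transcripts and lies under the line at 1047.7.

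At an unadjusted p under 0.01, the limit the study used for its pathway lists, 141 transcripts (0.673%) were found by edgeR, where an even spread gives 209.54. The same transcripts gave 227 by DESeq2 and 236 by limma voom, so that the side of the even number on which the count fell depended on the tool. Of the 141, 79 (0.377% of all tested) were higher in ABX-SAL rats and 62 (0.296%) were lower. The most negative log2 fold change was -3.15 and the most positive 2.69. The median size was 0.33, and 40 of the 141 changed by less than 0.25. Only 14 of the 141 differed by more than 1 on the log2 scale (8 higher, 6 lower), and 9 of these 14 had a mean under 10 reads per rat. With the label set in the model, edgeR placed 140 transcripts at this limit (94 higher, 46 lower), 85 of them among the 141. In the second label set alone there were 120 (84 higher, 36 lower), of which 43 were among the 141. limma voom had 142 higher and 94 lower.

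The counts turned on 1 saline rat more than on any other. Without SAL-SAL replicate 6, edgeR placed 323 transcripts at an unadjusted p under 0.01 (157 higher, 166 lower), 120 of them among the 141, and 0 past the adjusted threshold, with a lowest adjusted p of 0.308. The other 12 fits that each left out 1 rat gave between 108 and 188. DESeq2 called 72 transcripts (30 higher, 42 lower) without this rat and between 0 and 9 without any of the others. The library of this rat had 15130911 reads, a share of 23.6% on the 100 most abundant transcripts and a distance of 89.7 from the mean of its group, each within the range of the other SAL-SAL rats. Its length slope, 0.0118, lay above those of the other SAL-SAL rats (-0.0145 to 0.0074). What sets it apart was not tested.

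**Figure D3:**
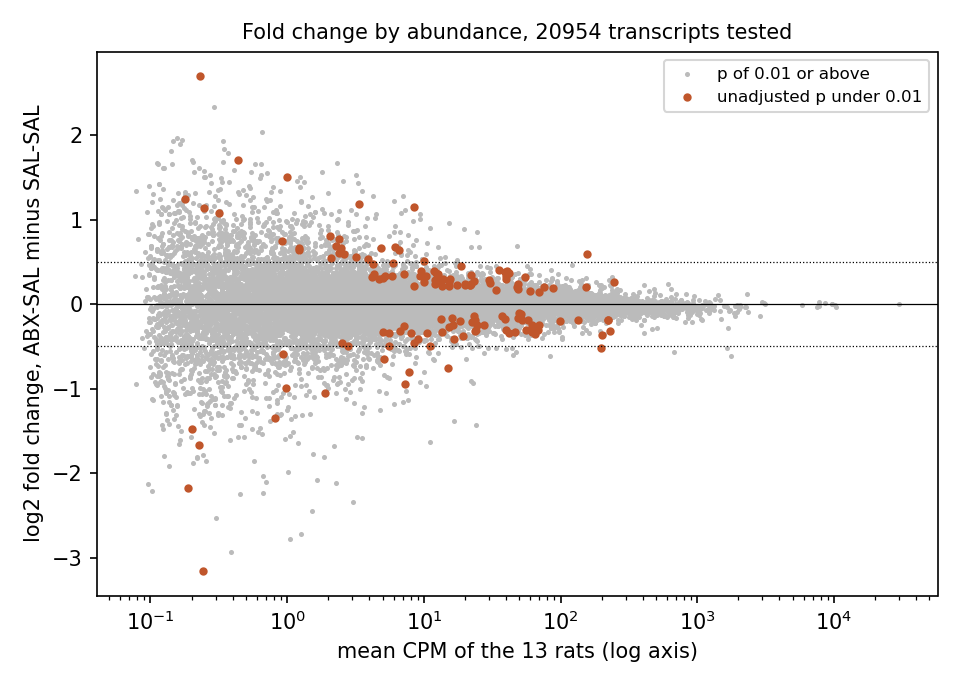
Log2 fold change (ABX-SAL minus SAL-SAL, vertical axis) against mean CPM of the 13 rats (horizontal log axis) for the 20954 transcripts tested, with the 141 at an unadjusted p under 0.01 in colour and dotted lines at 0.5 above and below 0. Changes beyond the dotted lines are mostly on transcripts of low abundance.

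How large a difference the data leave possible depended on abundance. For 62.8% of tested transcripts (13158), the 95% interval of the log2 fold change lay wholly within 0.5 of 0, and for 82.0% it lay within 1. Transcripts were divided into 4 bins of equal number by abundance. In the most abundant bin (median 79.4 CPM) 95.2% of intervals lay within 0.5, with a median standard error of 0.058. In the bin below it (median 21.7 CPM) this share was 90.2% and in the next (median 6.01 CPM) 62.2%. In the least abundant bin (median 0.725 CPM, about 12 reads per rat) it was 3.61%, with a median standard error of 0.43 and a median half-width of the interval of 0.92. The median size of the fitted log2 fold change over all transcripts was 0.083, and 51.1% of the fitted values were above 0.

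Presence or absence of a transcript did not separate the groups. None of the 31196 had a count above 1 in all 6 ABX-SAL rats and in 0 SAL-SAL rats, or in all 7 SAL-SAL rats and in 0 ABX-SAL rats. There were 2 transcripts with such counts in at least 5 ABX-SAL rats and 0 SAL-SAL rats, and 0 with such counts in at least 6 SAL-SAL rats and 0 ABX-SAL rats. CPM did not overlap between the groups for 21 transcripts (0.1%), with ABX-SAL rats above in 16 and below in 5. Their log2 fold changes had sizes between 0.17 and 0.81, and 0 of the 21 passed the adjusted threshold of edgeR.

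The first 13 transcripts of the files are listed together. They took 11.1% ± 1.18 of reads (SD, n = 6) in ABX-SAL rats and 11.0% ± 0.808 (SD, n = 7) in SAL-SAL rats (exact permutation test, p = 0.917). Their number, order and lengths are those of the protein genes of rat mitochondrial DNA, which encode subunits of the respiratory chain and ATP synthase, but no file used here names them. Of the 13, 12 were among the 100 most abundant transcripts. Their log2 fold changes lay between -0.067 and 0.025 (3 above 0, 10 below), and their 95% intervals between -0.24 and 0.19, so that larger changes of this group lay outside the intervals. The lowest unadjusted p by edgeR was 0.430.

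The transcripts with the smallest p in each direction, 2 each, were also the 4 that DESeq2 called. Their gene names are not given in the files. They were picked for this contrast, and the values below describe the pick.

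ENSRNOT00000021342.6 (1805 bases) was at a lowest of 16.0, a median of 16.7 and a highest of 18.96 CPM in ABX-SAL rats, and at 13.1, 14.2 and 14.6 CPM in SAL-SAL rats. Every ABX-SAL rat lay above every SAL-SAL rat. The log2 fold change was 0.29 ± 0.052 (SE; 95% interval 0.18 to 0.41), with an adjusted p of 0.992 by edgeR and 0.0351 by DESeq2. It was 0.27 in the second label set alone. DESeq2 kept the call with the label set in the model (adjusted p = 0.0306), had an adjusted p of 0.0717 and the same log2 fold change, 0.29, when the counts of other transcripts were summed as described below, and made it in 3 of 13 fits that each left out 1 rat.

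ENSRNOT00000011325.7 (2638 bases) was at a lowest of 40.7, a median of 47.4 and a highest of 50.4 CPM in ABX-SAL rats, and at 29.6, 34.7 and 42.4 CPM in SAL-SAL rats. The groups overlapped, since the highest saline rat exceeded the lowest antibiotic-treated rat. The log2 fold change was 0.39 ± 0.079 (SE; 95% interval 0.22 to 0.56), with an adjusted p of 0.992 by edgeR and 0.0319 by DESeq2. It was 0.32 in the second label set alone. With the label set in the DESeq2 model the log2 fold change was 0.36, against 0.39 without it, and the adjusted p was 0.0689. DESeq2 called it in 4 of 13 fits that each left out 1 rat. Both of the higher transcripts had whole counts in all 34 rats, as reads that are not divided between transcripts give.

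ENSRNOT00000087547.1 (4249 bases) was at a lowest of 11.5, a median of 14.1 and a highest of 16.0 CPM in ABX-SAL rats, and at 17.5, 18.6 and 20.8 CPM in SAL-SAL rats, without overlap. The log2 fold change was -0.41 ± 0.076 (SE; 95% interval -0.57 to -0.24), with an adjusted p of 0.992 by edgeR and 0.0160 by DESeq2. It was -0.35 in the second label set alone. DESeq2 kept the call with the label set in the model (adjusted p = 0.0425) and made it in 9 of 13 fits that each left out 1 rat.

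ENSRNOT00000087555.1 (2375 bases) was at a lowest of 50.8, a median of 56.7 and a highest of 61.8 CPM in ABX-SAL rats, and at 64.7, 66.7 and 71.5 CPM in SAL-SAL rats, again without overlap. The log2 fold change was -0.24 ± 0.051 (SE; 95% interval -0.35 to -0.13), with an adjusted p of 0.992 by edgeR and 0.0351 by DESeq2. It was -0.27 in the second label set alone. With the label set in the DESeq2 model the log2 fold change was -0.23, against -0.24 without it, and the adjusted p was 0.0907. DESeq2 called it in 5 of 13 fits that each left out 1 rat.

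**Figure D4:**
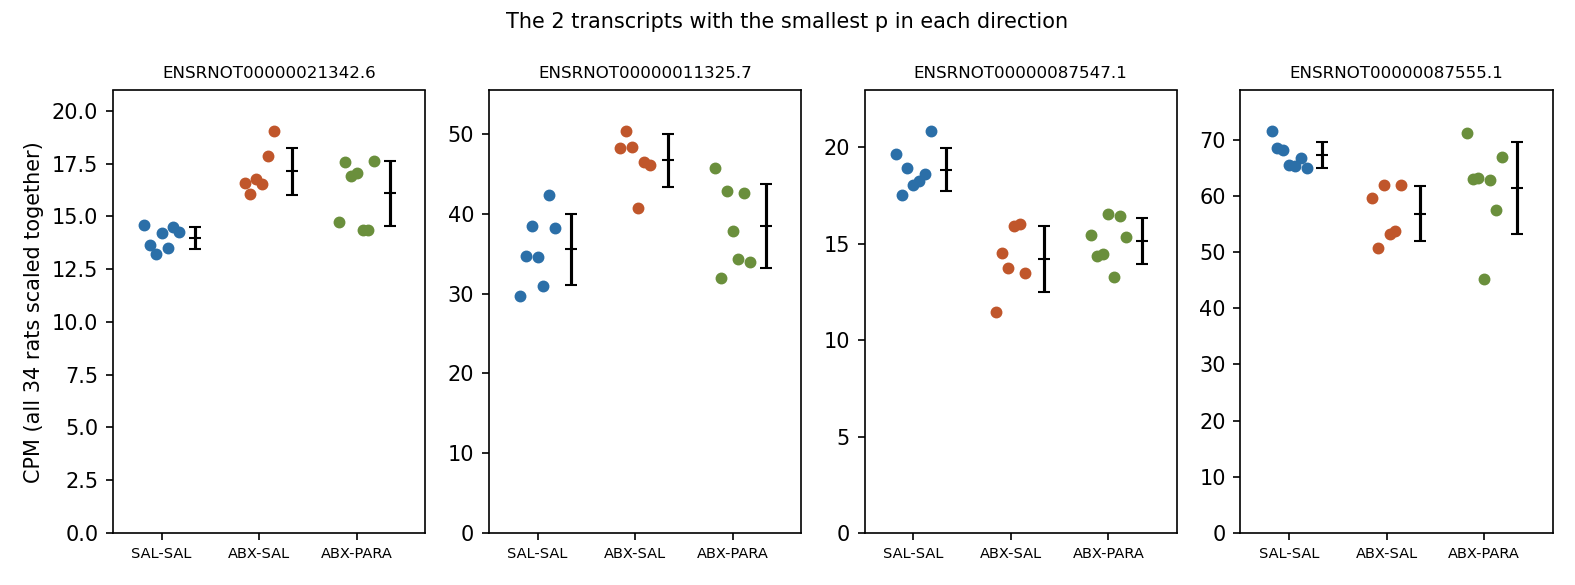
CPM per rat (points) with the mean and SD (bars) in SAL-SAL, ABX-SAL and ABX-PARA rats for the 4 transcripts with the smallest p, scaled together over all 34 rats. ABX-SAL and SAL-SAL points do not overlap except for ENSRNOT00000011325.7, and ABX-PARA rats lie between 14.3 and 17.6 CPM for ENSRNOT00000021342.6 and between 45.3 and 71.3 CPM for ENSRNOT00000087555.1.

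The ABX-PARA rats had the same antibiotics and show where a second antibiotic-treated group lay, although they differ from ABX-SAL rats by the bacteria they were given. Scaled over all 34 rats, ENSRNOT00000021342.6 had means of 16.1 ± 1.53 CPM in ABX-PARA (SD, n = 7), 17.1 ± 1.11 in ABX-SAL (n = 6) and 13.98 ± 0.524 in SAL-SAL rats (n = 7). ENSRNOT00000011325.7 was at 38.5 ± 5.29, 46.7 ± 3.34 and 35.6 ± 4.47 CPM in the same order. ENSRNOT00000087547.1 was at 15.1 ± 1.18, 14.2 ± 1.70 and 18.8 ± 1.12 CPM, and ENSRNOT00000087555.1 at 61.4 ± 8.26, 56.8 ± 4.87 and 67.2 ± 2.36 CPM. CTL (water) and SUG (sugar) rats of the other experiment (n = 7 each) had no antibiotics and were killed at another age. ENSRNOT00000021342.6 was at 15.6 ± 0.778 and 14.97 ± 2.19 CPM (SD) in CTL and SUG rats. ENSRNOT00000011325.7 was at 39.1 ± 4.02 and 38.2 ± 6.93 CPM. ENSRNOT00000087547.1 was at 15.9 ± 1.99 and 15.9 ± 2.66 CPM, and ENSRNOT00000087555.1 at 63.4 ± 7.66 and 60.4 ± 8.15 CPM. All these means, like those of ABX-PARA, lay between the SAL-SAL and ABX-SAL means. These levels are set side by side and were not tested.

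Both lower transcripts share reads with neighbouring transcripts in the files, and Salmon divides such reads by estimation. Added to the counts of 3 others of 1572 to 4107 bases, those of ENSRNOT00000087547.1 became whole in each rat, and those of ENSRNOT00000087555.1 did so with 1 other of 2253 bases. Such a set is called a run here. The means of the neighbours lay the other way, with overlap between the groups: the others of the first run were at 5.98 ± 2.27 CPM (SD, n = 6) in ABX-SAL and 3.37 ± 1.73 (n = 7) in SAL-SAL rats, and the neighbour of the second at 12.1 ± 4.27 and 5.45 ± 3.67 CPM. By edgeR, the neighbour of the second run had a log2 fold change of 1.15 ± 0.36 (SE, unadjusted p = 0.0067, adjusted p = 0.992). The 1 tested of the first (2965 bases) had 0.79 ± 0.51 (SE, edgeR unadjusted p = 0.143, adjusted p = 0.992). ENSRNOT00000087547.1 held 53.6% to 79.2% of the reads of its run in ABX-SAL rats and 78.3% to 100% in SAL-SAL rats.

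Once the reads of a run were summed, the difference shrank. The sum that holds ENSRNOT00000087547.1 was at 17.4 to 21.9 CPM in ABX-SAL and 20.8 to 23.4 CPM in SAL-SAL rats, with a log2 fold change of -0.14 ± 0.057 (SE; 95% interval -0.26 to -0.020). The sum that holds ENSRNOT00000087555.1 was at 65.5 to 71.2 CPM and 70.2 to 78.8 CPM, with a log2 fold change of -0.078 ± 0.037 (SE; 95% interval -0.16 to 0.00072). The groups overlapped in both sums. Both had an adjusted p of 0.945 by edgeR and of 1.00 by DESeq2, and DESeq2 called 1 of the 17545 summed features (0.0057%), ENSRNOT00000011325.7, at an adjusted p of 0.0414.

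**Figure D5:**
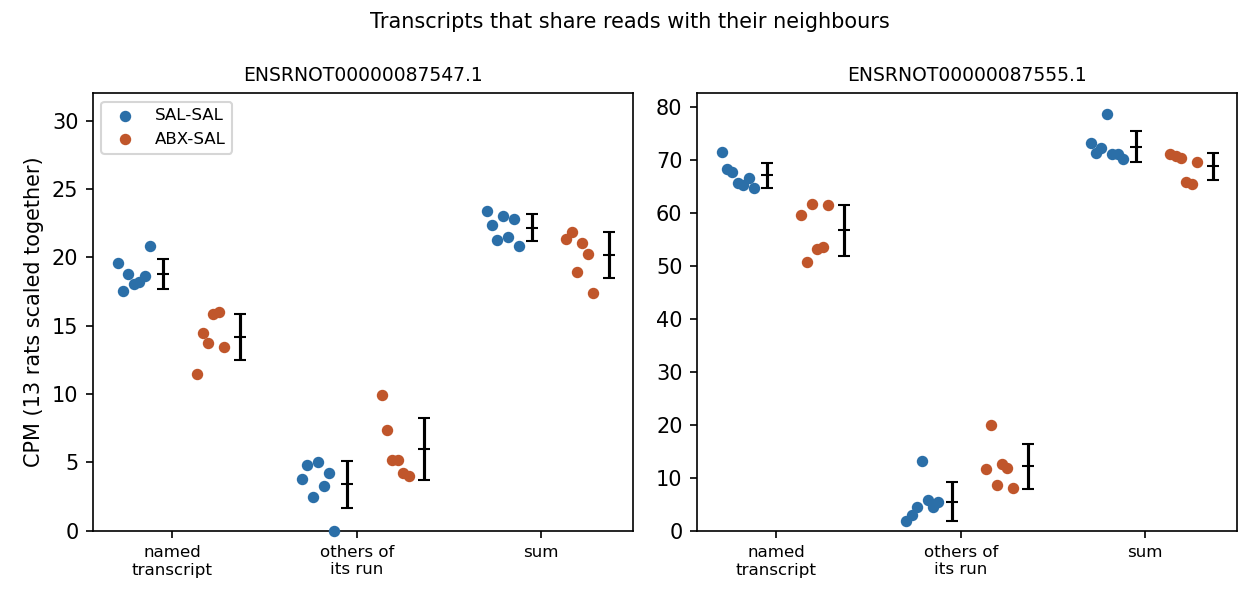
CPM per rat (points) with the mean and SD (bars) for the named transcript, the others of its run and their sum, in SAL-SAL and ABX-SAL rats. The named transcripts do not overlap between the groups, whereas the sums do, at 17.4 to 21.9 against 20.8 to 23.4 CPM in the left panel.

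Divided reads were common among the transcripts with small p-values as among all transcripts. Of the 141 at an unadjusted p under 0.01, 91 (64.5%) had a fractional count in 1 or more of the 13 rats, against 57.8% of all tested. Of the 141, 50 (35.5%) belonged to such a run, against 31.2% of all tested, and the summed run was at p under 0.01 for 4 of these 50 and under 0.05 for 15 by edgeR, where 0.775% of all summed features were at p under 0.01 and 4.74% under 0.05. The 50 were picked by their own p in the same rats, and their reads are part of the sums. A share above that of all summed features can follow from this pick alone. Whether the division of reads or the RNA itself differed between the groups was not tested.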

How the data were processed

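Libraries were made from total RNA of dorsal hippocampus punches and sequenced as single reads. The authors trimmed reads with Trim Galore, checked them with FastQC and had Salmon assign them to the Rnor6 transcriptome (Salmon's version is not given in the sources used here). The deposited expected counts are Salmon's estimated reads for each transcript; they are not normalized, and a read that fits several transcripts is split among them. The authors also deposited TPM, reads per effective length scaled to a common total; TPM was used to check a single point, that 1 transcript of 204 bases with an effective length of 10.4 holds 39.8% to 45.7% of all TPM in the 13 rats, so counts and CPM were used instead. Per the paper's methods, the authors left outlier libraries out of their tests and summed transcripts to genes. No ABX-SAL rat with replicate number 1 is among the libraries of the series. No annotation that pairs transcripts with genes was used, so the gene lists and tissue markers chosen for this comparison were not tested.

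Members, lists and tests were chosen with earlier results of these data known. Groups came from the sample titles, and each rat is a separate animal. Counts were rounded, a transcript was kept if its count exceeded 1 in over 50% of the 13 rats, and ABX-SAL was compared with SAL-SAL with edgeR 4.0.16 in R 4.3.3 (TMM scaling, quasi-likelihood F-test, Benjamini-Hochberg adjustment). Standard errors were derived from the fold change and the F statistic. CPM were scaled by TMM, and log2 CPM had a prior count of 2. Single values per rat were compared by exact permutation tests, two-sided. Transcripts were named by the smallest edgeR p, 2 in each direction. Runs of up to 14 neighbouring transcripts were joined where their counts summed to whole numbers within 0.01 in all 34 rats, with single counts called whole within 0.0015. Runs resolved 7769 transcripts, and 7429 with divided counts fell in none. Alternatives were RLE scaling, limma 3.58.1 (voom with a quality weight per sample), DESeq2 1.42.0, other filters, the replicate number or label set in the model, fewer or more rats, and each rat left out. Whole counts alone, summed runs, DESeq2 with sums, with the label set or with each rat left out, and a filter of at least 6 rats were added after the data were seen. So were the fits with fewer rats for the share on the 100 most abundant transcripts, the share on the first 13 and the number of transcripts with a count above 1. Fits and runs were tested on simulated data. Over the 36 pairs of libraries within a group, chi-square per degree of freedom was 4.24 to 42.0, so no such pair differed by counting error alone. Pairs across the groups were not compared in this way. The description of the series gives a longer course of saline than the labels, which were used. Counting error at this depth is part of the spread that the models estimate. Python 3.11.15 and matplotlib 3.10.9 drew the figures.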

Additional observations from a re-analysis of the deposited data

How the results depend on the processing

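The count of 0 transcripts past the adjusted threshold held under every edgeR and limma voom alternative and in each edgeR fit with 1 rat left out. With DESeq2 it was 4, with DESeq2 on summed runs 1 and with DESeq2 and the label set in the model 5, among which were only 2 of the 4 (ENSRNOT00000021342.6 and ENSRNOT00000087547.1). DESeq2 fits with 1 rat left out gave 0 to 72, the highest without SAL-SAL replicate 6. The count at an unadjusted p under 0.01 was 227 with DESeq2, 236 with limma voom and 70 with whole counts alone, where fewer transcripts (8556) were tested, and from 108 to 323 with 1 rat left out by edgeR and 158 to 490 by DESeq2, both highest without SAL-SAL replicate 6. The share of intervals within 0.5 of 0 was 50.5% with no low-count filter and 73.3% with whole counts alone, and 61.1% to 62.8% with 1 rat left out. Differences per rat with 1 rat left out ran from -0.032 to 0.027 for log2 reads, -0.0063 to -0.00041 for the length slope (0.0041 over transcripts with a mean log2 CPM above 1, p = 0.513 by exact permutation), -0.63 to 0.079 percentage points for the 100 most abundant transcripts, -0.32 to 0.41 points for the first 13 transcripts, 28.7 to 87.2 for transcripts with a count above 1 (the highest, without SAL-SAL replicate 5, at p = 0.0455 by exact permutation, an alternative added after the data were seen), -0.15 to 4.47 for the distance from the group mean, and 1.77% to 9.16% for the share on the principal components. The range for the distance from the group mean also reflects the number of rats per group. The 4 named log2 fold changes kept their sign in every fit that tested them. In DESeq2 fits with 1 rat left out, ENSRNOT00000087547.1 was called in 9 of 13, ENSRNOT00000087555.1 in 5, ENSRNOT00000011325.7 in 4 and ENSRNOT00000021342.6 in 3. Both groups share replicate numbers 2 to 7. Same-numbered rats correlated between -0.029 and 0.095 in their deviations from the group means, and 1 of 6 ABX-SAL rats correlated best with its own number. No pairing by replicate number was seen in these profiles, and whether the numbers stand for a pairing in the design is not stated. With the replicate block, 0 transcripts passed the adjusted threshold (lowest adjusted p 0.968 by edgeR), 124 were at p under 0.01 and 61.5% of intervals lay within 0.5 of 0. Intervals were widest for the least abundant transcripts; what part depth has in this was not tested.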
